A study of Mus musculus with 25 samples.

Results

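The probe sets described here are those of cell cycle and DNA replication genes on an Affymetrix MG-U74Av2 microarray hybridized with RNA of mouse lung. They were chosen by gene symbol alone: the A, B, D and E cyclins (Ccn), the Cdk, Cdc and Kif families, Mcm2 to Mcm7, the type II topoisomerases, and Stmn1, Ube2c, Mki67, Pcna, Rrm1, Rrm2, Plk1, Aurka and Aurkb. They came to 78 genes of the 8251 that the array annotation names singly, read by 102 of its 12422 probe sets. The symbol families also hold genes with other main roles, such as kinesins that carry cargo and kinases of neurons: 50 of the 102 probe sets, for 39 genes, were placed there, and the other 52, also for 39 genes, under the division cycle. That placing is coarse: the anaphase-promoting complex subunits Cdc16, Cdc23 and Cdc26 and the ubiquitin enzyme Cdc34, which serve the cycle, stand among the other roles. Ccnb1 has no probe set that the annotation gives to that gene alone.

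The lungs came from C57BL/6 mice, an inbred strain. Calorie restriction (CR), a cut of the diet by 2/3, lasted 2, 4, 12, 24, 48, 72 or 96 h, with 2 arrays each. Mice labelled as always fed gave 4 arrays at 0 h and 2 per group at 2, 4 and 12 h, so that 24 arrays formed 11 groups. The labels give as background that this diet reduces the alveoli of the mouse lung. The descriptions of the fed mice also carry the words for the 2/3 cut, so their feeding is not certain, and sex and age are not given in the sources used here. Arrays of a group carry the letters a and b, and fed 0 h alone carries 2 numbers, 1 and 2. Nothing says whether a and b are different animals or repeats of 1 RNA, so p-values may measure technical spread only.

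Cyclins switch on cyclin-dependent kinases, which drive a dividing cell past each transition of its cycle. The Mcm helicase opens DNA at origins, Pcna clamps the polymerases to it, and ribonucleotide reductase (Rrm1, Rrm2) supplies the building blocks. In mitosis, kinases such as Plk1 and the Auroras, the motor proteins of the spindle, and the ubiquitin enzymes of the anaphase-promoting complex separate the chromosomes. Transcripts of many of these genes are abundant mainly in cells that divide, and the adult lung is known as a tissue of slow turnover.

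Many of those genes share promoter elements that are read in dividing cells: the E2F element, the CHR (cell cycle genes homology region), and the CCAAT box bound by NF-Y. The promoters of 4 cycle genes that were called lower in late CR are shown because the results below turn on these genes; Stmn1, the other one, is not shown. Each runs from 250 bases before to 50 bases after the start of the gene, in RefSeq's GRCm38.p6, 5′ to 3′ on the strand of the gene. Capitals mark TTTNGCGC (E2F), TTTGAA (CHR) and CCAAT on either strand, so that GCGCNAAA, TTCAAA and ATTGG are the same motifs on the other strand.
Ccnb2, chr9:70421505-70421804, minus strand: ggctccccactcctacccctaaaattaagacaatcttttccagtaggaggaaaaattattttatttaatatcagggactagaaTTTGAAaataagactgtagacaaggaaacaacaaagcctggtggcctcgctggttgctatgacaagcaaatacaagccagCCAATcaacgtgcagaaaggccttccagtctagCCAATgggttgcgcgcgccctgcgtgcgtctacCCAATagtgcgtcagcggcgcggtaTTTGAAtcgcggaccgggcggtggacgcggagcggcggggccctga
Kif22, chr7:127042371-127042670, minus strand: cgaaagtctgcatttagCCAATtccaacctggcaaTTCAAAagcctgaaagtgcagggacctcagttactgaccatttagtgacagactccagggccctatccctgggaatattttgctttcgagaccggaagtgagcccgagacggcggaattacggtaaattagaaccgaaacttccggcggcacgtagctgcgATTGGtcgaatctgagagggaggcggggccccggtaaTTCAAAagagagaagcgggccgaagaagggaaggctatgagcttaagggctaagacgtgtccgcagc
Ube2c, chr2:164769679-164769978, plus strand: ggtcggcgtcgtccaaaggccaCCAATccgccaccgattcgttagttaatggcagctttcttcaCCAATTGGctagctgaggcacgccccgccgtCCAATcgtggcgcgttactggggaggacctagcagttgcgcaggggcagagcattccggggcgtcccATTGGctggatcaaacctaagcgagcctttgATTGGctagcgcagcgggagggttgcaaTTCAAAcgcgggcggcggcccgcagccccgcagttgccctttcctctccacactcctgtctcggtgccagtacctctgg
Mcm5, chr8:75109259-75109558, plus strand: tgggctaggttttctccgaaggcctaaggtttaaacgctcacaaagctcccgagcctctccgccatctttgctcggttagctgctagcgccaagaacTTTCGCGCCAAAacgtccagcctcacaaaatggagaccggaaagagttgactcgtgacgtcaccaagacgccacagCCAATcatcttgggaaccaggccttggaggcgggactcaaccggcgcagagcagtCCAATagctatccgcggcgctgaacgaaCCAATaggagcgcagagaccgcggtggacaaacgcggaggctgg
The Ccnb2 promoter holds 3 CCAAT motifs, 87, 54 and 21 bases before the start, with a CHR motif 167 bases before it and another just after it. Kif22 holds a CHR motif 17 bases before the start and a CCAAT motif 54 bases before it, and Ube2c a CHR motif 29 bases before the start and 6 CCAAT motifs, of which a pair overlaps in CCAATTGG. Mcm5 holds the E2F motif on both strands in 1 overlapping run that begins 153 bases before the start, and 3 CCAAT motifs. Promoters were found for 64 of the 78 member genes, 75 promoters in all. TTTNGCGC stood in 6 of these 75 (8%), against 452 of all 32851 mouse promoters of this length (1.38%). TTTGAA stood in 20 of the 75 (26.7%), against 17.9% of all, and CCAAT in 42 of the 75 (56%), against 37.4% of all. A match is a description of the letters in this window and not a binding site.

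The array read the classic markers of dividing cells poorly. Scaled signals were floored at 80.37, their 25th percentile, and a probe set was tested only if it reached its array's median signal on at least 2 arrays. Of the 102 members 59, for 52 genes, passed, and 43 did not. Signals of the 43 ran between 3.18 and 391 over all arrays, with medians between 12.8 and 243. At least 12 arrays lay at or under the floor for 25 of them, and all 24 for 6, among them 1 of the probe sets of Kif20a and 1 of Cdc25a. In 26 genes every probe set was this dim. The proliferation antigen Mki67 had 125 to 303 on 1 probe set and 21.3 to 264 on the other. Top2a, which untangles DNA before division, had 19.8 to 199.5, with 17 arrays at the floor. The mitotic kinase Cdk1 had 55.7 to 282, Aurka 16.4 to 169.8, Aurkb 63.8 to 391 and Kif11, a motor of the spindle, 13.3 to 195. Rrm2 ran from 15.5 to 228, Mcm6 from 11.1 to 139.9 and Ccne2 from 6.23 to 116. No fold change is given for these members, and the data say neither that they changed nor that they did not.

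**Figure D1:**
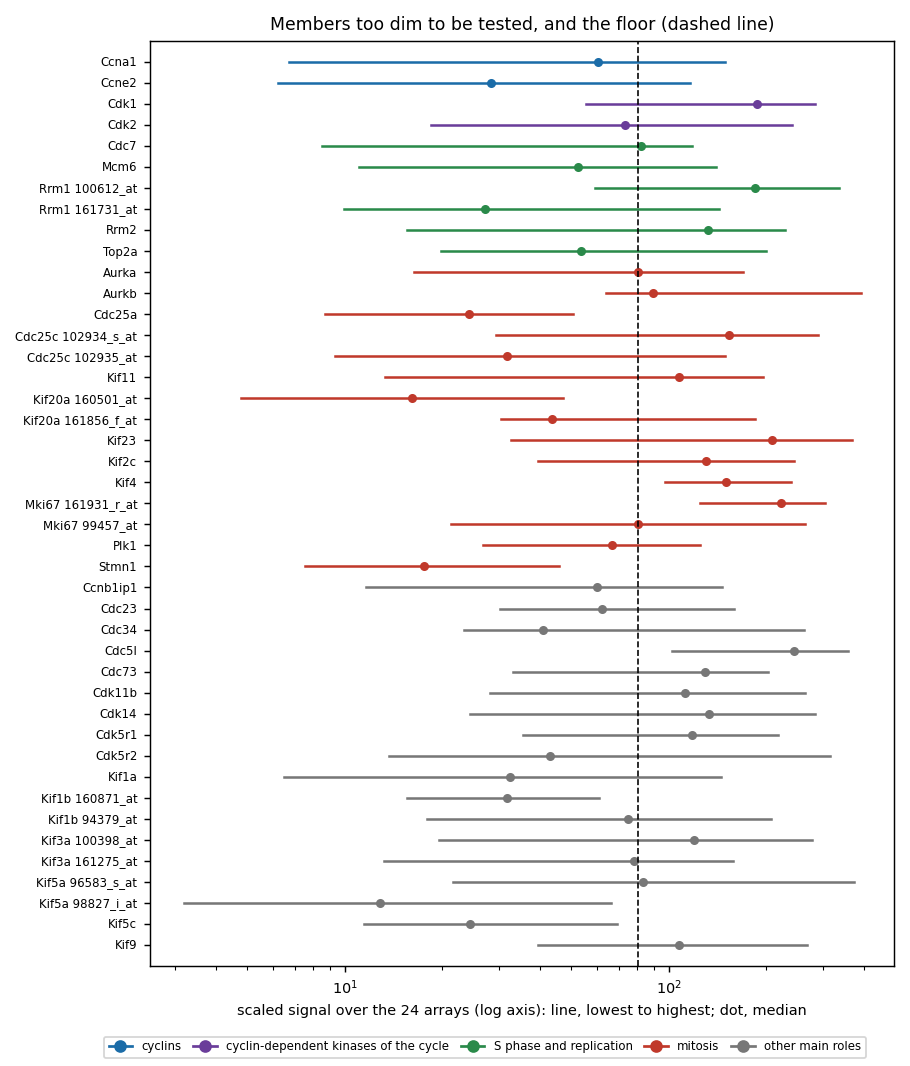
Scaled signal of the 43 member probe sets that were too dim to be tested, on a log axis, with the lowest and highest of the 24 arrays joined by a line, the median as a dot, and the floor of 80.37 as a dashed line. Colours give the role, and most lines reach or cross the floor, 1 probe set each of Mki67, Kif4 and Cdc5l being the 3 that stay above it on all arrays.

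The array facts that bear on the members are these. Across probe sets, r between the a and b arrays sharing a group and number was 0.94 to 0.976, whereas fed 0 h number 1 and number 2 correlated at 0.854 to 0.871. The highest signal on an array was 74440 to 99040 on 12 arrays and 31600 to 54310 on the other 12; the high range held CR 2, 12, 24 and 48 h, fed 0 h number 1 and fed 12 h, the low range CR 4, 72 and 96 h, fed 0 h number 2 and fed 2 and 4 h. The Gapdh ratio of 3′ to 5′ probe sets, a sign of RNA quality, was 1.95 and 2.15 at CR 48 h, 1.76 to 2.02 at fed 0 h and 1.01 to 1.66 on the other arrays. The actin ratio was 3.81 and 2.69 at CR 48 h and 2.77 on 1 array of CR 24 h, whereas fed 0 h, at 1.87 to 2.31, lay within the 1.24 to 2.37 of the remaining arrays. Late CR (24 to 96 h, 8 arrays) was compared with fed 0 h, from which the late times are whole days apart, and CR of 2, 4 and 12 h with fed mice at the matching hour. A probe set was called at an adjusted p under 0.05 (limma, Benjamini-Hochberg over all 7440 probe sets tested), and each fold, a ratio of geometric means, has its 95% confidence interval. In lung as a whole, fewer cells of a type and less RNA per cell cannot be told apart.

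In late CR the members were called about as often as probe sets in general. Of 59 members 4 (6.78%) were higher and 6 (10.2%) lower than at fed 0 h, against 9.85% higher and 8.24% lower of all 7440 probe sets. The 27 tested probe sets with a cell cycle role had no higher and 5 lower calls, with a median log2 difference of -0.33, and 22 of the 27 differences were negative. The 32 with other main roles had 4 higher and 1 lower call, with a median of 0.05; Cdc16, Cdc23, Cdc26 and Cdc34 are among the 32 and were not called. Over all probe sets the median was -0.00495, and over all 59 members -0.15. An unadjusted p under 0.05 was reached by 21 of the 59 members, 14 of them lower.

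**Figure D2:**
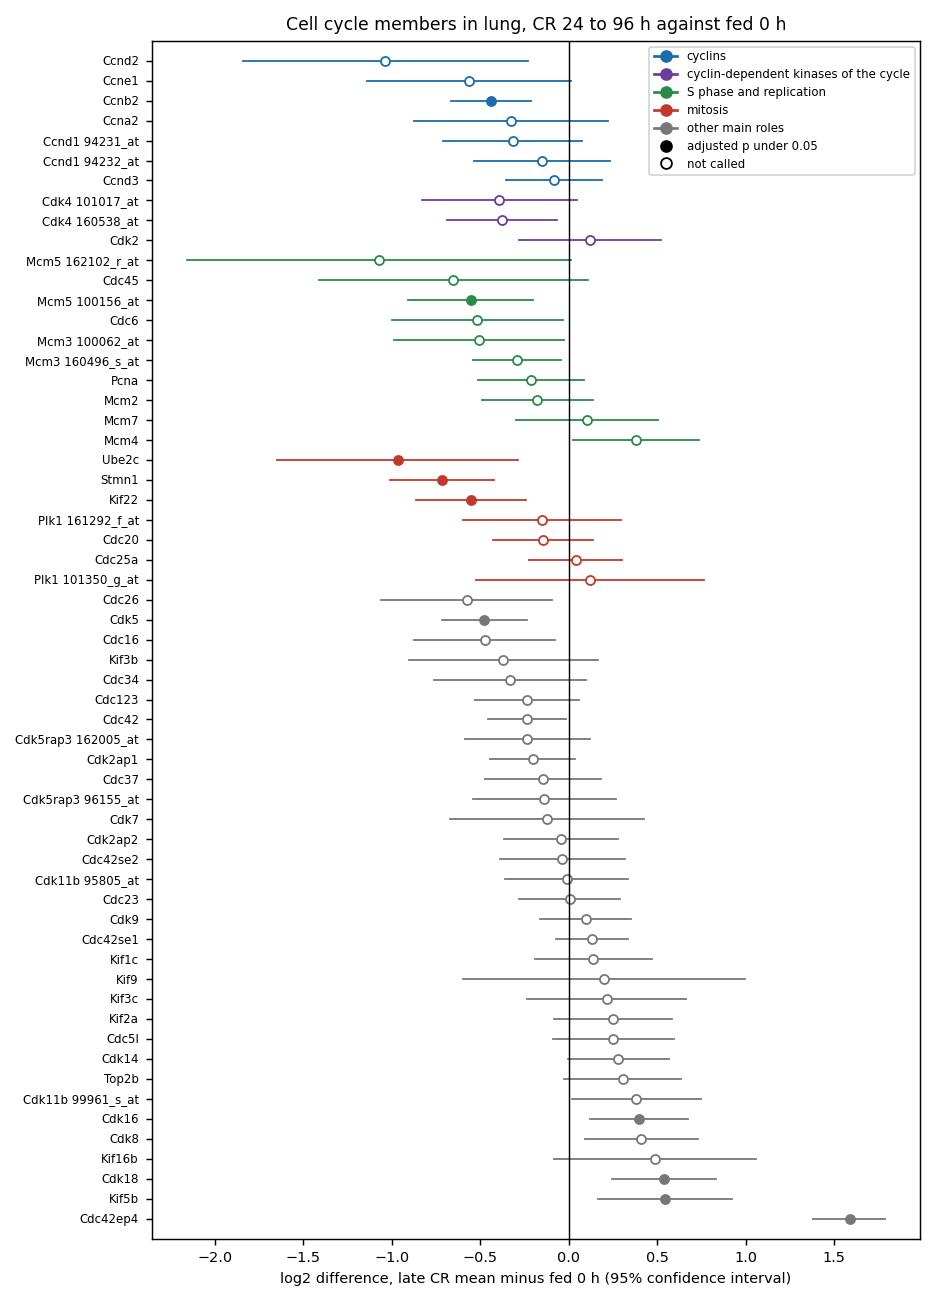
Log2 difference of late CR (8 arrays) minus fed 0 h (4 arrays) for the 59 tested member probe sets, ordered by role, with 95% confidence intervals; filled points have an adjusted p under 0.05. The filled points are Ccnb2, Mcm5, Ube2c, Stmn1, Kif22 and Cdk5 to the left of 0 and Cdk16, Cdk18, Kif5b and Cdc42ep4 to the right.

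Among the cyclins Ccnb2 alone was called. Its product, cyclin B2, is a partner of Cdk1 at the entry into mitosis. Ccnb2 had 995 and 835 at CR 24 h, 694 and 706 at 48 h, 824 and 769 at 72 h and 964 and 716 at 96 h, against 1010, 1199, 1019 and 1149 at fed 0 h. All 8 late CR arrays lay below all 4 fed 0 h arrays, narrowly for 1 array of 24 h. Ccnb2 was 1.35-fold lower (95% interval 1.16 to 1.58, adjusted p = 0.0107, limma). The interval of the log2 difference spanned 0 for Ccna2, the cyclin of S phase and G2 (-0.33), and for Ccne1, the cyclin of entry into S phase (-0.57, adjusted p = 0.153). The D cyclins couple growth signals to the cycle. Ccnd2 had a log2 difference of -1.04 with an adjusted p of 0.0668, and Ccnd3 one of -0.08 with an adjusted p of 0.666. The brighter probe set of Ccnd1 had 2155 to 2927 on the late CR arrays, against 1979 and 2015 on fed 0 h number 1 and 4435 and 4279 on number 2. All late CR values thus lay between the values of the controls. Its dimmer probe set had a log2 difference of -0.32 (adjusted p = 0.242).

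Of the cyclin-dependent kinases that drive the cycle none was called. Cdk4, the partner of the D cyclins, had log2 differences of -0.38 (adjusted p = 0.0793) and -0.39 (adjusted p = 0.192) on its 2 probe sets. Cdk2, the partner of Ccne1, had 0.12 (adjusted p = 0.678).

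Among the replication genes Mcm5, a subunit of the replicative helicase, was lower in late CR. On its brighter probe set Mcm5 had 524 and 307 at CR 24 h, 373 and 416 at 48 h, 499 and 422 at 72 h and 449.7 and 445 at 96 h, against 734, 795, 467 and 555 at fed 0 h. The late CR arrays lay below both number 1 arrays and overlapped with number 2. Mcm5 was 1.47-fold lower (1.15 to 1.87, adjusted p = 0.029, limma). Its dimmer probe set had a log2 difference of -1.07 that was not called (adjusted p = 0.149). On the other fed arrays the brighter probe set had 482 and 659.7 at 2 h, 685 and 739 at 4 h and 778 and 804 at 12 h. Against these 6 arrays the log2 difference of late CR was -0.68 (-0.99 to -0.37, adjusted p = 0.00729), so Mcm5 was called with either set of controls. In CR of 2 to 12 h it had 692 to 1011, above every late CR array.

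The other helicase subunits were not called and differed in sign. Mcm3 had log2 differences of -0.29 (adjusted p = 0.091) and -0.51 (adjusted p = 0.122) on its 2 probe sets, and Mcm2 had -0.18. Mcm7 had 0.10 and Mcm4 0.38 (adjusted p = 0.118). Cdc6, which loads the helicase onto origins, had -0.52 (adjusted p = 0.12), Cdc45, a part of the active helicase, -0.65 (adjusted p = 0.21) and the clamp Pcna -0.21 (adjusted p = 0.301). Of the 10 tested probe sets of replication genes 8 were negative and 1 was called.

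Of the mitotic genes Stmn1 is the brightest in these lungs, with 2599 to 7051 on its main probe set; the second one lay under the floor on all 24 arrays. Stathmin, its product, destabilizes microtubules and is turned off by phosphorylation when the spindle forms. Stmn1 had 3806 and 3427 at CR 24 h, 3637 and 3405 at 48 h, 3803 and 3180 at 72 h and 3848 and 2599 at 96 h, against 7051, 6670, 4191 and 5160 at fed 0 h. No late CR array reached the lowest fed 0 h array. Stmn1 was 1.64-fold lower (1.34 to 2.02, adjusted p = 0.00257, limma).

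The lower level of Stmn1 was already present at 12 h, with and without restriction. CR lungs had 4711 and 5350 at 2 h, 4464 and 5153 at 4 h, and 2759 and 3365 at 12 h. Fed lungs had 5041 and 4627 at 2 h and 5678 and 5334 at 4 h, but 2889 and 3582 at 12 h. Both fed 12 h arrays thus lay within the range of late CR and below all fed 0 h arrays. In a comparison added because of these values, Stmn1 was 1.76-fold lower at fed 12 h than at fed 0 h (1.31 to 2.35, adjusted p = 0.0421, limma), where 1.92% of all probe sets were called; this comparison and the late one share the fed 0 h arrays. Against the fed arrays of 2 to 12 h, the log2 difference of late CR was -0.36 and was not called (adjusted p = 0.0987).

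Kif22, a kinesin that binds chromosome arms and moves them on the spindle, had 337 and 495 at CR 24 h, 389 and 499 at 48 h, 347 and 284 at 72 h and 375 and 350.3 at 96 h. Fed 0 h had 470.4, 580.2, 599.7 and 579.9. The CR 24 and 48 h arrays overlapped with the lowest fed 0 h array, and those of 72 and 96 h did not. Kif22 was 1.47-fold lower in late CR (1.18 to 1.82, adjusted p = 0.0163, limma). Ube2c, the ubiquitin-conjugating enzyme of the anaphase-promoting complex, had 214 and 176 at CR 24 h, 72 and 63.7 at 48 h, 201 and 108 at 72 h and 129.9 and 329 at 96 h, against 295, 315, 311 and 239 at fed 0 h. One late CR array, at 96 h, exceeded every fed 0 h array, and both 48 h arrays lay under the floor. Ube2c was 1.95-fold lower by the floored values (1.22 to 3.14, adjusted p = 0.0459, limma). This probe set is dim and was tested because it reached its array's median on 3 of the 24 arrays. Its median signal was 220.9, beside 222.2 for the brighter probe set of Mki67, which was not tested. Without the CR 48 h arrays, an alternative chosen after the data were seen, 7 of the 10 calls held. Those of Ube2c (log2 -0.67, adjusted p = 0.187), Mcm5 (-0.52, adjusted p = 0.0595) and Cdk16 (0.38, adjusted p = 0.0687) did not, although the values of Mcm5 and Cdk16 moved little from -0.55 and 0.40 with all arrays.

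Cdc20, which activates the anaphase-promoting complex, had a log2 difference of -0.15 (adjusted p = 0.458). Plk1 had -0.15 (adjusted p = 0.635) and 0.12 (adjusted p = 0.801) on its 2 tested probe sets, and Cdc25a, a phosphatase that activates the kinases, 0.04 on the probe set that was tested. Cdc16, a subunit of the anaphase-promoting complex, had -0.47 (adjusted p = 0.0861) and Cdc26, another subunit, -0.58 (adjusted p = 0.0842).

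The remaining lower call was Cdk5, a kinase known chiefly from neurons, where it does not drive the cycle. Cdk5 had 737 and 604 at CR 24 h, 607 and 673 at 48 h, 779.8 and 790.2 at 72 h and 854 and 763 at 96 h, against 1051, 1188, 871 and 929 at fed 0 h. The groups did not overlap. Cdk5 was 1.39-fold lower (1.18 to 1.64, adjusted p = 0.00912, limma), and at fed 12 h it had 645 and 767, within the range of late CR.

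**Figure D3:**
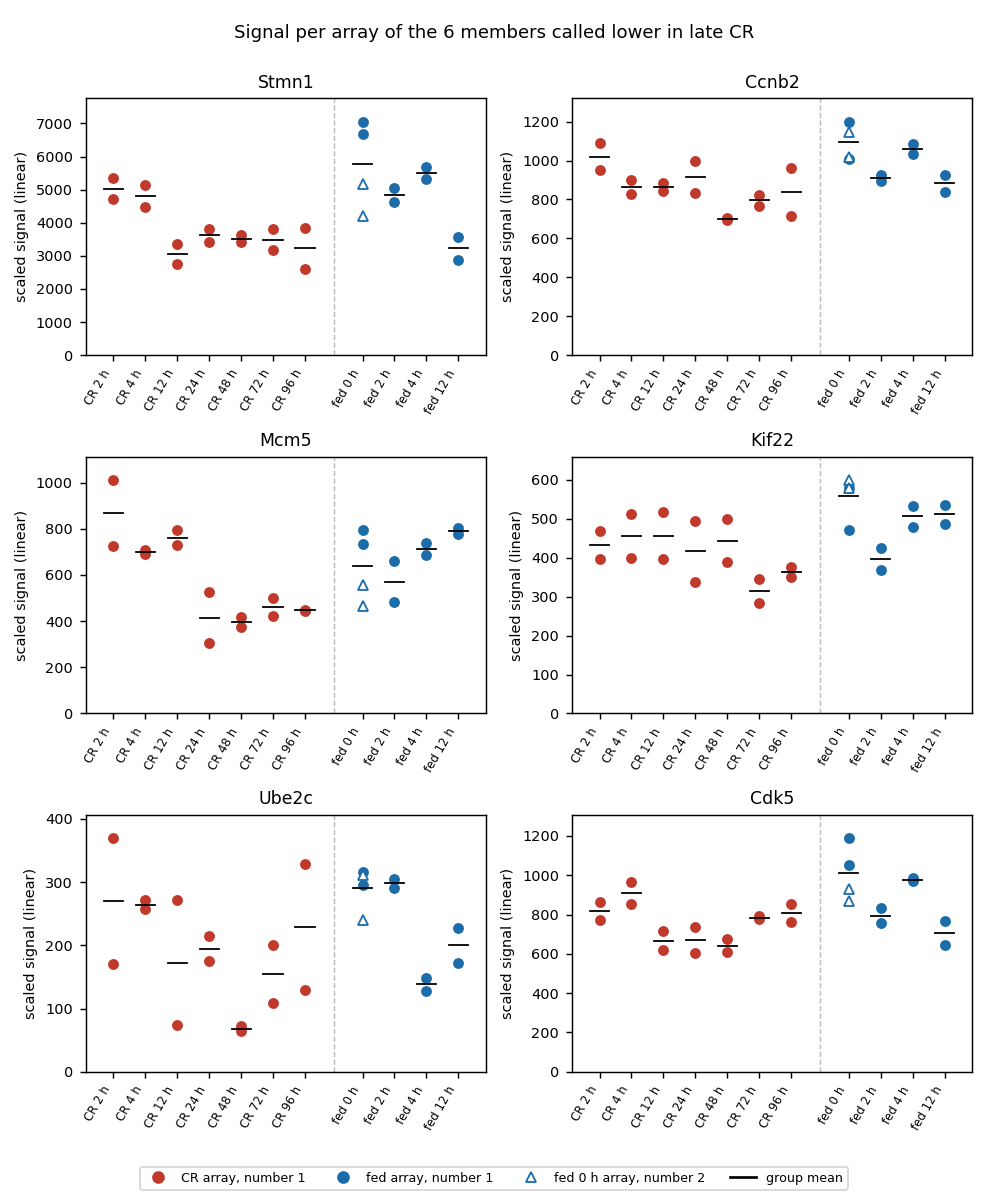
Scaled signal per array (linear axis from 0) of the 6 members called lower in late CR, by group, with CR groups left of the dashed line and fed groups right of it; bars are group means, and open triangles are the number 2 arrays of fed 0 h. The Stmn1 panel shows CR 12 h and fed 12 h at the level of late CR, and the Mcm5 panel shows the group means of CR from 24 h on below those of all fed groups, with single arrays overlapping.

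The 4 higher calls were all genes with other main roles. Cdc42ep4, an effector of the small GTPase Cdc42 that acts on the actin skeleton, was the most clearly changed member. Cdc42ep4 had 3473 and 3217 at CR 24 h, 3457 and 3017 at 48 h, 3130 and 3651 at 72 h and 3820 and 3523 at 96 h, against 1208, 1078, 1065 and 1189 at fed 0 h. All late CR arrays lay far above all fed 0 h arrays, and the spread within each group was small beside the gap. Cdc42ep4 was 3-fold higher (2.6 to 3.46, adjusted p = 3.67e-09, limma). It was called at each late time: 1.56 at 24 h (log2), 1.51 at 48 h, 1.58 at 72 h and 1.7 at 96 h.

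Fed lungs showed a part of that difference within the first 12 h. In CR lungs Cdc42ep4 had 1802 and 2183 at 2 h, 2015 and 2226 at 4 h and 3276 and 3046 at 12 h, against 1800 and 1563, 2264 and 2049, and 2640 and 2309 at the same hours in fed lungs. Fed 12 h was 2.18-fold higher than fed 0 h (1.78 to 2.67, adjusted p = 0.000443, limma). The mean of fed 2 to 12 h was higher than fed 0 h by 0.87 (log2, adjusted p = 0.000366, limma). That comparison called 1.13% of all probe sets higher and 0.726% lower, and no other member. Without 2a or without 2b of fed 0 h it called 2 members (3.95% and 5.65% of all probe sets). Late CR was higher than fed 2 to 12 h by 0.71 (0.53 to 0.90, adjusted p = 2.9e-05). The late difference exceeded the early one by 1.4 (1.11 to 1.68, adjusted p = 1e-05), while the early difference of 0.19 was not called.

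Cdk18, a kinase of the PCTAIRE family whose role in division is not established, had 881.7 to 1165 on the late CR arrays with a median of 1018, against 736, 501, 799.5 and 788 at fed 0 h. The groups did not overlap, and Cdk18 was 1.45-fold higher (1.18 to 1.78, adjusted p = 0.0145, limma). Cdk16, of the same family, ran from 1563 to 2081 with a median of 1728, against 1104, 1066, 1588 and 1689; it was 1.32-fold higher (1.09 to 1.6, adjusted p = 0.0438) and overlapped with number 2. Kif5b, a kinesin that carries organelles along microtubules, ran from 1299 to 1902 with a median of 1594, against 814, 747, 1369 and 1671. Kif5b was 1.46-fold higher (1.12 to 1.89, adjusted p = 0.0422), again overlapping with number 2 and lying above number 1.

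**Figure D4:**
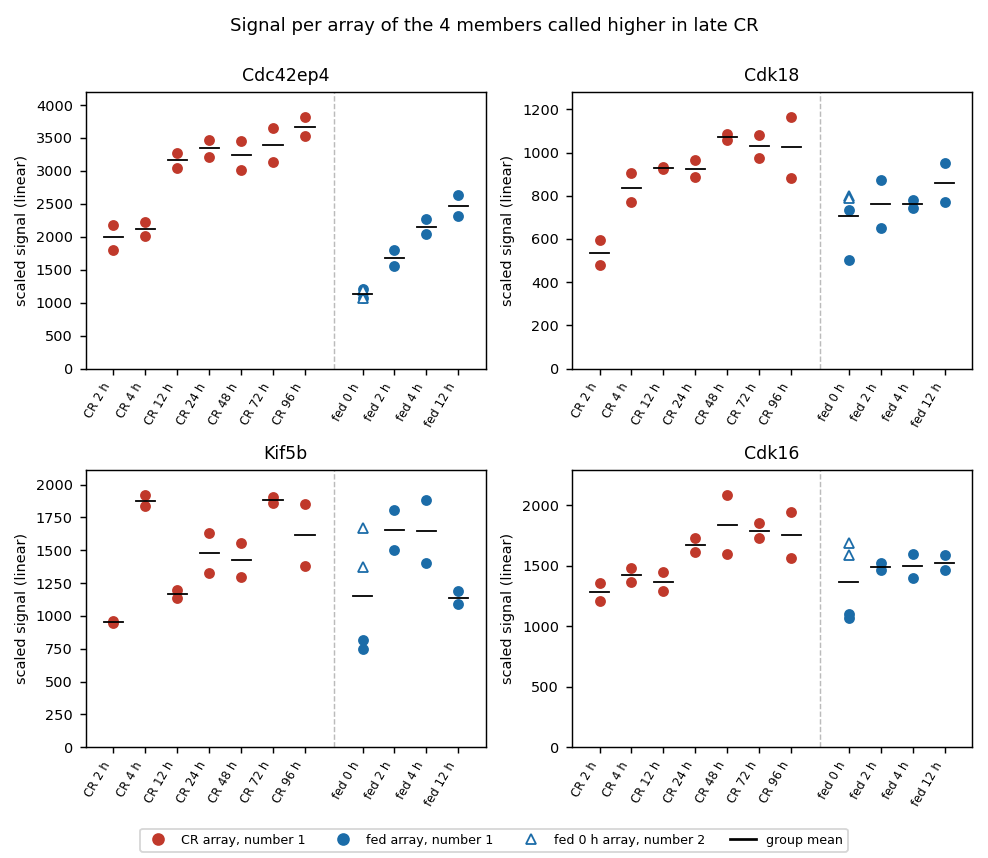
Scaled signal per array (linear axis from 0) of the 4 members called higher in late CR, with CR groups left of the dashed line and fed groups right of it; bars are group means, and open triangles are the number 2 arrays of fed 0 h. Cdc42ep4 shows fed 0 h below every other group, and in the Kif5b and Cdk16 panels the number 2 triangles lie among the CR values.

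The late calls depended on which fed 0 h arrays served as control. Between number 1 and number 2 of fed 0 h, which bear the same labels, 8 members were called higher and 12 lower, against 20% higher and 19.9% lower of all probe sets. These members included Ccnd1 (brighter probe set, log2 -1.13), Cdc26 (1.41), Cdc34, the ubiquitin-conjugating enzyme of SCF ligases (1.18), Kif5b (-0.95), Cdc42se2, a binding partner of Cdc42 (0.93), Pcna (0.51), Mcm4 (-0.61) and Stmn1 (0.56, adjusted p = 0.0157).

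Against number 1 alone 31 members were called in late CR (49.4% of all probe sets), and against number 2 alone 4 were called (7.76%). The 4 were Cdc42ep4, Kif22, Ccnd1 (brighter probe set) and Cdc42se2. Of 59 members 23 (39%) had estimates of opposite sign against the 2 controls, against 45% of all probe sets. Called against each in the same direction were Cdc42ep4, at 1.58 against number 1 and 1.6 against number 2, and Kif22, at -0.47 and -0.64. Ccnd1 and Cdc42se2 were called against each in opposite directions. The log2 difference of Ccnd1 was 0.41 against number 1 and -0.71 against number 2, and that of Cdc42se2 was -0.50 and 0.43.

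Stmn1 lost its call against number 2 (log2 -0.44, adjusted p = 0.0611) and had -0.996 against number 1, and Ccnb2 had -0.45 against number 1 and -0.42 against number 2 (adjusted p = 0.0544). Mcm5 (brighter probe set) had -0.85 and -0.26 (adjusted p = 0.428), Ube2c -1.05 and -0.89 (adjusted p = 0.225), and Cdk5 -0.63 and -0.32 (adjusted p = 0.148). Cdk18 had 0.73 and 0.34 (adjusted p = 0.217), Kif5b 1.02 and 0.07, and Cdk16 0.69 and 0.10. Within the high range, CR 24 and 48 h against number 1, 29 members were called (46% of all probe sets), and within the low range, formed by CR 72 and 96 h against number 2, 6 were called (10.7%). Stmn1 was called within both, at -0.94 and -0.49, as was Cdc42ep4, at 1.53 and 1.65; Kif22 had -0.81 in the low range, which was called, and -0.30 in the high range, which was not, and the difference between the ranges was not tested.

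Single arrays also decided calls. Without array 1b of fed 0 h, 2 of the 10 late calls were left, Cdc42ep4 and Stmn1; without 1a of fed 0 h or without 1b of CR 72 h, 6 members were called. The share of all probe sets called was 7.28%, 8% and 12.7% without these arrays. Leaving out 2a or 2b of fed 0 h gave 18 and 16 member calls, where 30.2% and 29% of all probe sets were called, against 18.1% with all arrays. Array 1b of fed 0 h alone took the call of Ccnb2 (adjusted p = 0.0522), Cdk5 (0.0539), Kif22 (0.0599) and Cdk18 (0.0838). Mcm5 (brighter probe set) lost its call without any 1 of 6 arrays, 1a and 1b of fed 0 h and 4 of late CR, at adjusted p between 0.0527 and 0.132. Ube2c lost it without any 1 of 17 arrays, Kif5b of 16 and Cdk16 of 20, at adjusted p of up to 0.129, 0.206 and 0.195. Stmn1 stayed between 0.000336 and 0.0163 and Cdc42ep4 between 1.01e-08 and 3.67e-08 when any 1 array was left out.

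**Figure D5:**
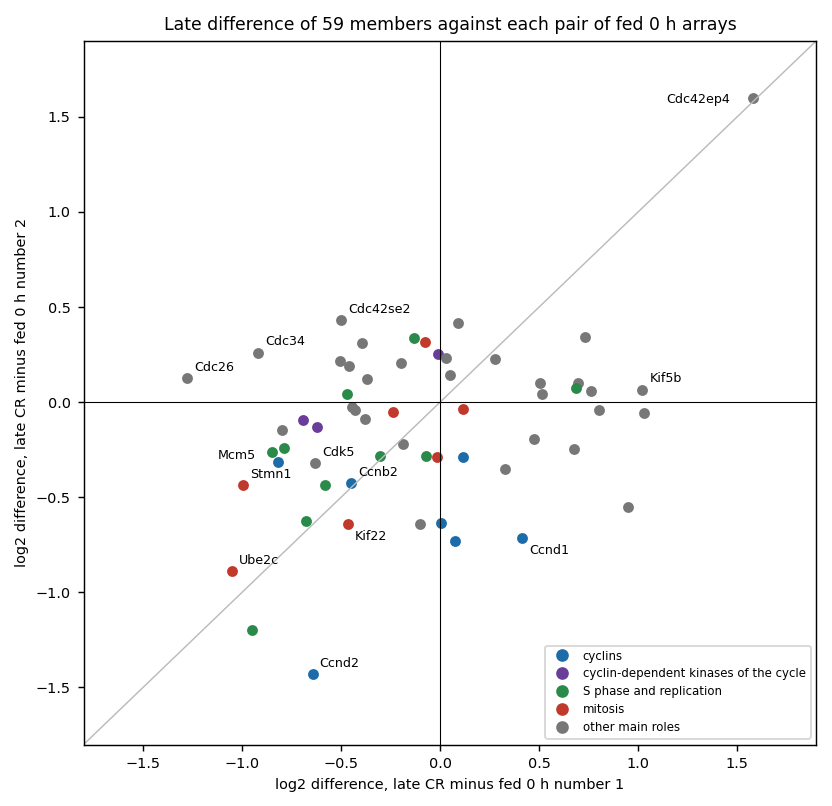
Log2 difference of late CR minus fed 0 h number 1 (x axis) and minus number 2 (y axis) for the 59 tested member probe sets, coloured by role, with the line of equal values. The 23 points in the upper left and lower right corners have opposite signs, and Cdc42ep4 lies on the line at 1.58 and 1.6.

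No member was called between CR and fed lungs of the same hour in the first 12 h. In the mean of CR minus fed at 2, 4 and 12 h, 0 of 59 members passed (limma), none had an unadjusted p under 0.05, and 0.0269% of all probe sets were called. CR 2 h lies in the high signal range and fed 2 h in the low one, so diet and range cannot be told apart at that hour; with a block for the range 3 members and 6.08% of all probe sets were called. At 2 h and at 4 h 0% of all probe sets were called, with 8 and 1 members at an unadjusted p under 0.05. At 12 h 0.148% were called and 4 members had an unadjusted p under 0.05. The early interval of Stmn1 was -0.35 to 0.21 (log2), that of Mcm5 (brighter probe set) -0.16 to 0.51 and that of Ccnb2 -0.27 to 0.16.

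Single late times called few members. At 24 h only Cdc42ep4 was called (2.82% of all probe sets). At 48 h Cdc42ep4 was higher and Ccnb2 (log2 -0.64), Cdk5 (-0.65) and Ube2c (-1.84) were lower (5.44%), and these are the arrays with the high Gapdh ratio. At 72 h Cdc42ep4 was higher, and Kif22 (-0.82) and Stmn1 (-0.70) were lower (5.82%). At 96 h Cdc42ep4 was higher and Stmn1 lower (-0.84, adjusted p = 0.017, 6.49%). Days 3 and 4 of CR against days 1 and 2 called 0 of 59 members (limma; 6 at an unadjusted p under 0.05) and 1.81% of all probe sets. Days 1 and 2 lie wholly in the high signal range and days 3 and 4 in the low one, so time and range cannot be told apart within these arrays; with a block for the range, which rests on the other groups, 16 members and 34.6% of all probe sets were called. Without 1b or 2a of fed 0 h the comparison called 1 and 2 members (2.7% and 3.21% of all probe sets). The 3 members of smallest p there were Cdc42se2 (-0.64, adjusted p = 0.0923), Cdk2ap2, a Cdk2-associated protein (0.52, adjusted p = 0.144), and Kif9, a kinesin of cilia (-1.21, adjusted p = 0.163). Late CR against fed 2 to 12 h called 2 members, Cdc42ep4 and Mcm5, against 3.62% higher and 2.73% lower of all probe sets.

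The late difference was itself set against the early one for all probe sets, and 1 member, Cdc42ep4, was called, where 2% of all were. For Stmn1 that difference was -0.64 (adjusted p = 0.088) and for Mcm5 (brighter probe set) -0.73 (adjusted p = 0.101). Over any difference among the 11 groups 3 members were called, Cdc42ep4 (adjusted p = 1.74e-06), Stmn1 (0.022) and Mcm5 (0.0355), against 9.26% of all probe sets. Without 1a of CR 12 h or 1a of fed 4 h 1 member was called (5.91% and 6.14% of all probe sets). Without 1b, 2a or 2b of fed 0 h 5 members were called (9.66%, 13.8% and 13% of all).

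Genes of the same pathway outside the symbol rule were read from lists. Among 22 tested probe sets of cycle inhibitors and checkpoint genes 4 were higher and 1 lower in late CR, beside 9.85% higher and 8.24% lower of all probe sets. Cdkn1a, the inhibitor p21 of the cyclin-dependent kinases, had 2472 and 2659 at CR 24 h, 3899 and 3372 at 48 h, 3440 and 4480 at 72 h and 4860 and 5277 at 96 h, against 967, 791, 840.4 and 1174 at fed 0 h. The groups of this probe set lay far apart, and the second one was higher by 1.34 (log2). The first was also higher against each number, by 2.08 and 1.89, and against fed 2 to 12 h, by 1.99 (adjusted p = 1.46e-08, limma). Gadd45g, a stress-induced growth arrest protein, was higher by 0.68, and the pocket protein gene Rbl2, which restrains E2F genes in resting cells, by 0.66 (adjusted p = 0.00889). Rbl1, a pocket protein more abundant in cycling cells, was lower by 1.04 on the log2 scale (a difference of -1.04, adjusted p = 0.0151). Among 24 probe sets of E2F factors and replication enzymes 1 was higher (Rpa1, 0.49) and 2 were lower, the clamp loaders Rfc2 (-0.39) and Rfc3 (-0.67). Among 14 further probe sets of mitosis and chromosomes 1 was lower, the tubulin Tubb5 (1 of its probe sets, -0.33).

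Apart from Cdkn1a, these calls depended on the control. Rbl1 (-1.28 and -0.79), Rbl2 (0.74 and 0.58), Rfc2 (-0.44 and -0.35), Rfc3 (-0.94 and -0.40) and Tubb5 (-0.43 and -0.22) were called against number 1, the first value, and not against number 2. Gadd45g (0.33 and 1.04) and Rpa1 (0.34 and 0.63) were called against number 2 alone. Against fed 2 to 12 h Gadd45g (0.99), Rbl1 (-0.83) and Tubb5 (-0.69) were called, and Rbl2, Rfc2, Rfc3 and Rpa1 were not.

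Markers of some other cell types moved beside these members, and their part in the result was not tested. Of 7 tested macrophage probe sets none was called in late CR (5 differences positive), and of 5 erythroid ones none (4 negative). Against number 1 alone 1 macrophage probe set was higher and 2 lower, and against number 2 alone 2 were higher. Within the high range 1 macrophage probe set was higher and 5 were lower, and within the low range 4 were higher and 0 lower. Of the erythroid probe sets Hba-a1 was lower against number 1 alone and Alas2 higher against number 2 alone. Both were lower within the high range, and Alas2 was higher within the low range. Days 3 and 4 of CR against days 1 and 2, where time and range cannot be told apart, called 4 macrophage probe sets higher. Of 9 tested probe sets of B cell markers 6 were lower in late CR, and the summed signal of the list was 2668 to 5109 on late CR arrays and 3917 to 12630 on fed 0 h arrays. Against number 1 alone 7 were lower, against number 2 alone 1 (Fcer2a), and against fed 2 to 12 h 8. Of 5 tested T and NK cell probe sets 3 were lower (Gzma, Gzmb and Klrd1), with sums of 857 to 1590 in late CR and 1072 to 2618 at fed 0 h; 4 were lower against number 1, 0 against number 2 (limma, with Gzma at -0.49 and Gzmb at -0.59, adjusted p = 0.283 and 0.27) and 3 against fed 2 to 12 h. The T cell genes Cd4 and Cd8b1 were not called against the 4 fed 0 h arrays together. Cd4, the only 1 of the 5 with a positive log2 difference there, had 258.3 to 552.5 in late CR. At fed 0 h Cd4 had 353.7, 334.9, 107.9 and 436.4. No B cell marker was at 0, and Cr2 lay under the floor on 23 arrays. The defining T cell genes Cd3d, Cd3e, Cd3g and Cd8a were too dim to be tested. Of 10 heart muscle probe sets, for tissue that can adhere to lung, 6 were lower. The sums of this list were 15870 to 31910 in late CR and 32220 to 41640 at fed 0 h. Against number 1 alone 5 were lower and 1 (Myh6) was higher. Against number 2 alone 6 were lower, and against fed 2 to 12 h 1 was. Within the high range 5 were lower and 2 (Actc1 and Myh6) higher. The lung markers Scgb1a1, of club cells (25650 to 75170), and Sftpc, of alveolar type II cells (22260 to 97700), were high on every array, as was Ager, of alveolar type I cells (21830 to 38230). Scgb1a1 and Sftpc nevertheless split by signal range. Sftpc had 71740 to 97700 on the arrays of the high range and 22260 to 51190 on those of the low range. Scgb1a1 had 55860 to 75170 and 25650 to 47580. Both were called lower on days 3 and 4 of CR than on days 1 and 2, where time and range cannot be told apart. Of the 7 tested probe sets of the lung list 1 was higher in late CR, that of the surfactant protein gene Sftpb (0.51, adjusted p = 0.037), which was not called against number 2 (0.20) or fed 2 to 12 h (0.17). With number 1 alone as control 3 of the lung list were higher (Cdh5, Sftpb and Vwf) and 2 lower (Scgb1a1 and Sftpc), and with number 2 alone 0 were called. Vwf was the 1 called higher against fed 2 to 12 h. Between number 1 and number 2 themselves, Scgb1a1 and Sftpc were higher in number 1, and Cdh5, Sftpb and Vwf lower. Sftpd, at 67.8 to 232, was too dim to be tested. The fed 0 h arrays, with a higher Gapdh ratio than most others, are the controls of the late mean but not of late CR against fed 2 to 12 h, and the part of RNA quality in these results was not tested.

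Over the 11 group means, the probe sets most like Stmn1 in pattern were Atp5l (Pearson r = 0.965), Emg1 (0.965), Apoc1 (0.958), Ccdc90b (0.958) and Fadd (0.953). Of the members, Cdc26 had r = 0.861, Cdc42, a small GTPase of the actin skeleton, 0.846, Cdk4 (the probe set at -0.39) 0.813, Cdk5 0.809 and Mcm3 (the one at -0.29) 0.793 with Stmn1, and Ccnb2 had 0.735. Cdc42ep4 ran opposite to it, at -0.846. Ube2c had 0.466, Kif22 0.434 and Mcm5 (brighter probe set) 0.363. For Top2a, whose signal lay at the floor on most arrays, the most alike were Eif3f (0.811), Sec23b (0.793), Dtx1 (0.764), Itgb7 (0.752) and Klhl7 (0.746). These are descriptions of 11 points that share arrays and scaling.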

How the data were processed

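Deposited were intensities on a linear scale, 1 per probe set, for 24 arrays. Each array had a mean of 799.8 after trimming 2% at each end, so the authors' values were already scaled. For these arrays no software is stated in the labels. A single array of another platform, for which the submitters' processing notes name MAS5, has a title and a description that disagree on its treatment, and it was not used.

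Arrays were rescaled to a common median, signals were floored at the 25th percentile of all of them, and log2 was taken. The floor compresses the changes of dim probe sets. Of 12488 probe sets 66 controls were left out, and the 7440 that reached their array's median on at least 2 arrays were tested. One limma model (version 3.58.1, run under R 4.3.3) gave the means of the 11 groups from all arrays, with trended moderation of the variances and 13 residual degrees of freedom. All tests were two-sided, and p-values were adjusted over all 7440 probe sets.

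Gene names came from the platform annotation, and all 102 member probe sets matched the RefSeq gene table by Entrez identifier. The code was tested on simulated data. Members, lists and tests were chosen with earlier results of these data known, so no test here is independent of them. Named were all members called in the late or the early mean, the 3 members of smallest p in each other comparison, and a fixed list of common cycle genes; Cdc16, Cdc23, Cdc25a, Cdc42, Cdk11b, Kif20a, Kif4 and Cdc5l were named after their values were seen. From the other lists those called in the late mean were named, at most 6 a list. With 2 arrays in most groups, precision is limited by their number.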

Additional observations from a re-analysis of the deposited data

Results flagged for a closer look

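In the 36 named member probe sets the 4 fed 0 h arrays were searched for a value far from the others by Dixon's ratio of gap to range, a criterion that chance meets in about 5% of groups. Kif22 was picked out because array 1a had 470.4 while the other fed 0 h arrays had 579.9 to 599.7, a ratio of 0.862. Cdc20 was picked out because array 1a had 727.7 while the others had 563.1 to 568.1, a ratio of 0.966. Both single values lay on the same array.

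Cdc42ep4 was picked out because its late difference exceeded its early one by 1.4 on the log2 scale (adjusted p = 1e-05, limma), the only such member. The late difference has fed 0 h as control and the early one fed 2 to 12 h. For Cdc42ep4 these controls themselves differed, fed 2 to 12 h being called higher than fed 0 h.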

How the results depend on the processing

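The late count of 10 members (18.1% of all probe sets) was 6 with no filter on dim ones (8.14%). It was 4 with array weights (11.4%), 2 with only the groups compared (4.66%) and 1 with letters averaged (0.363%). Against fed 0 h number 1 alone the late count was 31 (49.4%), and against number 2 alone 4 (7.76%). It was 29 within the high signal range (46%), 6 within the low one (10.7%) and 19 with a block for the signal range (34.2%). The early count of 0 became 3 with that block. Days 3 and 4 against days 1 and 2, with 0 calls (1.81%), gave 2 with array weights (6.61%) and 1 with only the groups compared (3.48%). Letters averaged gave 1 (2.18%) and the range block 16. Fed 2 to 12 h against fed 0 h, with 1 call (1.85%), gave 0 with only the groups compared (0.0269%) and 0 with letters averaged (0%). It gave 17 against number 1 (35.8%) and 4 against number 2 (11%). Late CR against fed 2 to 12 h, with 2 calls (6.34%), gave 1 when the array median was required on all arrays (7.85%). Array weights gave 5 (16.1%), only the groups compared 6 (15.2%) and the range block 15. The F test, with 3 calls, gave 13 with array weights and 20 with the range block. Shares over all probe sets moved too: with the range block 34.2% of all were called in the late mean, 6.08% in the early mean, 34.6% for the days, 30.1% against fed 2 to 12 h and 42.2% in the F test, and with array weights 29.1% in the F test. The causes were not tested, apart from the smaller number of samples or probe sets that some of these alternatives use by construction. The ranges were added after seeing the data.

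Leaving out 1 array at a time gave 2 to 18 late calls, 0 to 2 for the days, 1 to 2 for fed 2 to 12 h, 2 to 3 for late CR against fed 2 to 12 h, and 1 to 5 for the F test. The early count was 0 each time.

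The alternatives were run for the named members. Among these, sign changes that involved a call were those of Ccnd1 (brighter probe set), whose late difference was 0.41 against number 1 and 0.499 in the high range and whose early difference was 0.29 with the range block, of Cdc42se2, at 0.43 late against number 2, and of Cdk2ap2, at 0.57 late in the low range. Cdk11b, outside the naming rule, was called at 0.58 on 1 probe set in the high range and at -0.60 in the low range, with -0.01 over all arrays. The other tested probe set of Cdk11b was also called higher in the high range and, at 0.80, against number 1. It was not called in the low range. Cdc42ep4 was called in all 42 alternatives, at 1.53 to 1.65. Stmn1 was called in 40 of 42, all but letters averaged and number 2 alone, Cdk5 and Cdk18 in 37 of 42, Ccnb2 in 36 of 42 and Kif22 in 36 of 41. Mcm5 (brighter probe set) was called in 28 of 41, Kif5b in 18 of 42, Ube2c in 16 of 41 and Cdk16 in 12 of 42.

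The letters a and b did not pair the arrays: over 66 pairs of groups the correlation of deviations ran between -0.19 and 0.12, with a median of 0.01. With the letter as replicate block the late count was 9, Kif5b losing its call (adjusted p = 0.0504), and the F test gave 2.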
